A study of Arabidopsis thaliana and Marchantia polymorpha and Mesotaenium endlicherianum with 120 samples.

Results

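Of the 7661 nuclear genes counted in the green alga Ostreococcus tauri, 150 were studied as a group because warmth and brighter light went with opposite changes in their transcripts. The choice was made from the counts themselves. Members were chosen by their group means of CPM, a gene's count scaled to a fixed total of nuclear counts per library. For each gene CPM was averaged within each group, and log2 of the mean CPM plus 1 was taken. The warmth difference was the 24 minus 16 °C difference on this scale, averaged over both light levels. The light difference was the light 100 minus light 10 difference, averaged over both temperatures. Among the 7290 nuclear genes that reached 5 CPM in at least 1 group mean, genes were ranked by the smaller of the sizes of the 2 differences, called the score below. The 75 highest scores with a positive warmth and a negative light difference make up the warmth-raised, light-lowered genes, or warmth-raised set. The 75 highest scores with the opposite signs make up the warmth-lowered, light-raised genes, or light-raised set. Both names state the signs used by the rule and not the outcome of a test.

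The cells were wild type and had grown for 7 days under continuous white light. They were kept at 24 °C with light of 100 µmol per square metre and second (light 100), at 24 °C with light 10, at 16 °C with light 100, or at 16 °C with light 10, with 3 libraries in each of the 4 groups. Below, 24 °C is called warm and 16 °C cool, and light 100 bright and light 10 dim. The series also covers Arabidopsis, Marchantia and Mesotaenium, whose tables were not used here. The labels do not say whether the 3 libraries of a group came from separate cultures, so the p-values below measure the spread between libraries, which may be technical. The sources used here do not pair the nuclear identifiers with names or products. The genes are therefore called by identifier, and no role is given to any of them.

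Ostreococcus tauri is a free-living marine green alga of the prasinophytes, among the smallest known eukaryotic cells, with a single chloroplast and a single mitochondrion and a compact nuclear genome. In green algae such as Chlorella and Dunaliella, cold and bright light are known to act alike on the photosynthetic apparatus, because cold slows the use of the energy that light supplies. Genes that follow this energy balance in those algae respond in opposite directions to warming and to brighter light. None of the identifiers below was tied to that control here.

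Total counts per library ran from 18415316 to 38801166, the lowest in the first library at 24 °C and light 100. Rows of the plastid and the mitochondrion held 0.0703% to 0.216% of the counts. Spearman correlations over the 7290 genes were 0.987 to 0.996 between libraries of 1 group in all groups but 24 °C, light 10. There the third library, with 26513409 counts, had correlations of 0.976 and 0.983 with the other libraries of its group, which had 0.997 with each other. The interaction rests in part on that group. Its median in each set, and the calls in the more frequent direction, are given with and without this library.

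Opposed differences past 0.5 were few in this alga beside shared ones of that size. Whatever the size, 963 genes had a positive warmth and a negative light difference, and 1502 had the opposite signs. Both differences were positive in 1687 genes and negative in 3138. The values in this paragraph chose the genes and are given without a test. A warmth difference above 0.5 with a light difference below -0.5 was found in 66 of the 7290 genes, and the opposite pair of signs in 58. Both differences were above 0.5 in 726 genes and both below -0.5 in 565. With the column sums scaled by TMM (trimmed mean of M-values), which allows for differences in composition between libraries, these counts were 76, 54, 856 and 418. The highest score was 1.40 among the warmth-raised, light-lowered genes and 1.60 among the warmth-lowered, light-raised genes, with medians of 0.61 in each set. Had the same ranking been applied to genes moving the same way with warmth and light, its 75th score would have been 1.68 for genes higher with both and 1.13 for genes lower with both. The last gene inside the warmth-raised set was OT_ostta03g01720, with a score of 0.482, and the first one outside was OT_ostta05g03150, with 0.477. In the light-raised set these were OT_ostta01g05910, with 0.474, and OT_ostta09g00910, with 0.473.

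**Figure D1:**
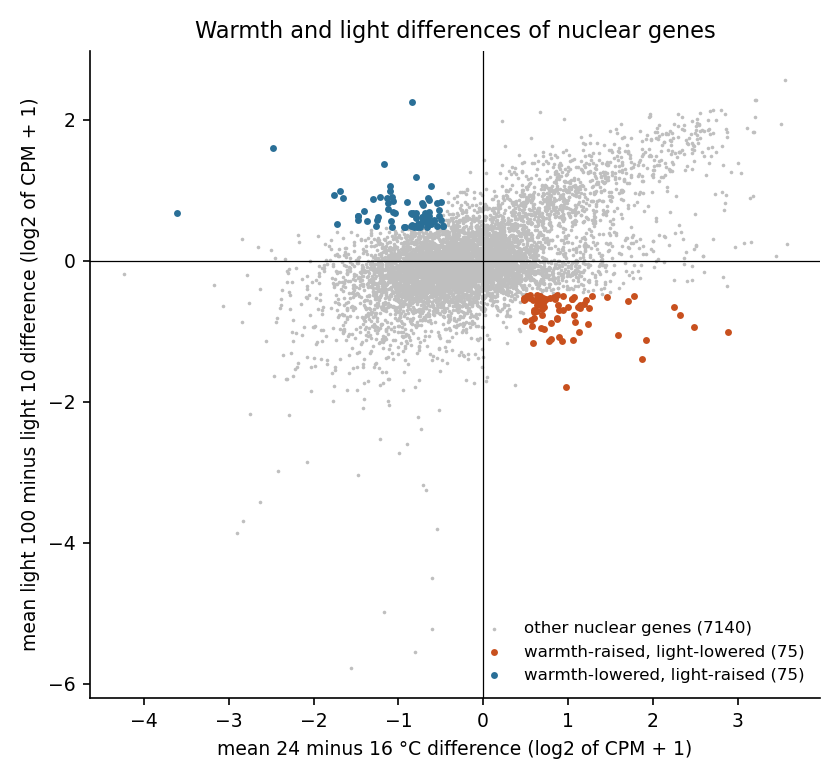
Mean warmth difference (24 minus 16 °C, horizontal) against mean light difference (light 100 minus light 10, vertical) of 7290 nuclear genes, both on the log2 scale of mean CPM plus 1. The 75 warmth-raised, light-lowered genes lie at the lower right and the 75 warmth-lowered, light-raised genes at the upper left, while most genes past 0.5 in both measures lie at the upper right (726) or lower left (565).

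The warmth difference of the warmth-raised set ran from 0.48 to 2.88 with a median of 0.83, and its light difference from -1.79 to -0.48 with a median of -0.66. In the light-raised set the warmth difference ran from -3.61 to -0.47 with a median of -0.82, and the light difference from 0.47 to 2.25 with a median of 0.63. Over all 7290 genes the medians were -0.24 for warmth and -0.06 for light. TMM scaling moved the median warmth difference of all genes by 0.23 and the median light difference by 0.04. All 75 genes of each set kept both signs with that scaling and with RLE (relative log expression) scaling. The size of the warmth difference exceeded that of the light difference in 54 genes of the warmth-raised set and 59 of the light-raised set, and with TMM scaling in 67 and 30.

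Because the rule took opposed differences, the widest contrast lay between the warm, dim libraries and the cool, bright ones. The 24 °C, light 10 mean was the highest of the 4 group means in 74 of the 75 warmth-raised, light-lowered genes, and the 16 °C, light 100 mean was the lowest in 74. In the warmth-lowered, light-raised genes the 24 °C, light 10 mean was the lowest in 68 of 75, and the 16 °C, light 100 mean was the highest in 72. The difference of the 24 °C, light 10 mean over the 16 °C, light 100 mean had a median of 1.59 on the log2 scale in the warmth-raised set (1.01 to 3.90) and -1.49 in the light-raised set (-4.29 to -0.96). The libraries of these groups did not overlap in any of the 150 genes, which the choice of members favours. How many of all 7290 genes had no such overlap was not counted. The warm, bright libraries and the cool, dim ones lay closer together, which the rule favours too. The difference between their means is the sum of the warmth and light differences, which have opposite signs in every member. The size of the difference between the 24 °C, light 100 mean and the 16 °C, light 10 mean had a median of 0.25 in each set, against 0.71 over all 7290 genes. With TMM scaling it was 0.39 in the warmth-raised set and 0.22 in the light-raised set, against 0.64 over all genes.

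As a share of all nuclear counts, the warmth-raised set held 1.09% ± 0.126 in the warm bright, 2.07% ± 0.214 in the warm dim, 0.715% ± 0.0417 in the cool bright and 1.03% ± 0.0355 in the cool dim libraries (mean ± SD, n = 3 each). The light-raised set held 0.721% ± 0.0858 and 0.480% ± 0.0657 at 24 °C, with light 100 and light 10 in this order, and 1.63% ± 0.0793 and 0.835% ± 0.0296 at 16 °C. The median gene had 66.5 CPM over all libraries in the warmth-raised set and 37.3 CPM in the light-raised set, against 50.9 CPM over all 7290 genes. In bulk counts of this kind, a change in the RNA of each cell and a change in the share of cells with the RNA cannot be told apart.

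OT_ostta04g02600 had the highest score of the warmth-raised, light-lowered genes. At 24 °C, OT_ostta04g02600 had 49.2, 63.5 and 88.8 CPM at light 100 and 151, 169 and 259 CPM at light 10. The 16 °C libraries had 18.8, 21.3 and 16.9 CPM at light 100 and 51.6, 45.9 and 46.7 CPM at light 10. Every library at 24 °C and light 10 was above every other library, and every library at 16 °C and light 100 was below every other one, while the remaining groups overlapped. The warmth difference was 1.77 at light 100 and 1.98 at light 10, and the light difference -1.51 at 24 °C and -1.30 at 16 °C. Second was OT_ostta09g02060. At 24 °C it had 55.7, 58.0 and 74.2 CPM at light 100 and 109.6, 121 and 171 CPM at light 10. At 16 °C it had 15.2, 16.7 and 14.1 CPM at light 100 and 32.8, 37.6 and 36.1 CPM at light 10. Its 4 groups did not overlap, and its warmth difference was 1.96 at light 100 and 1.89 at light 10. In both genes the third library at 24 °C and light 10 was the highest of all. Without it their scores were 1.27 and 1.02, against 1.40 and 1.12 with it.

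OT_ostta16g01140 had the highest score of the warmth-lowered, light-raised genes and stood alone in 1 respect. At 24 °C, OT_ostta16g01140 had 10.3, 11.5 and 9.08 CPM at light 100 and 0, 0 and 0 CPM at light 10. Its libraries at 16 °C had 16.7, 14.3 and 16.6 CPM at light 100 and 18.8, 22.9 and 17.9 CPM at light 10. The 3 libraries at 24 °C and light 10 held no count of it, while the other 9 libraries held 189 to 814 counts each. Its score of 1.60 therefore depends on the 1 added to the mean CPM. Taken against 3 counts over that group, it was at least 355-fold higher at 24 °C with light 100 than with light 10, and at least 685-fold lower at 24 °C with light 10 than at 16 °C with light 10. It was the 1 gene of 7290 with no count in that group. Its light difference at 16 °C was -0.31, against the direction of its set. OT_ostta06g03830 came second. At 24 °C it had 39.8, 17.3 and 23.1 CPM at light 100 and 12.6, 13.0 and 16.9 CPM at light 10. Libraries at 16 °C had 48.5, 144 and 68.2 CPM at light 100 and 25.4, 21.95 and 22.4 CPM at light 10. The second library at 16 °C and light 100 was far above the other 2 of its group, and the score was 0.89 without it, against 1.17 with it.

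**Figure D2:**
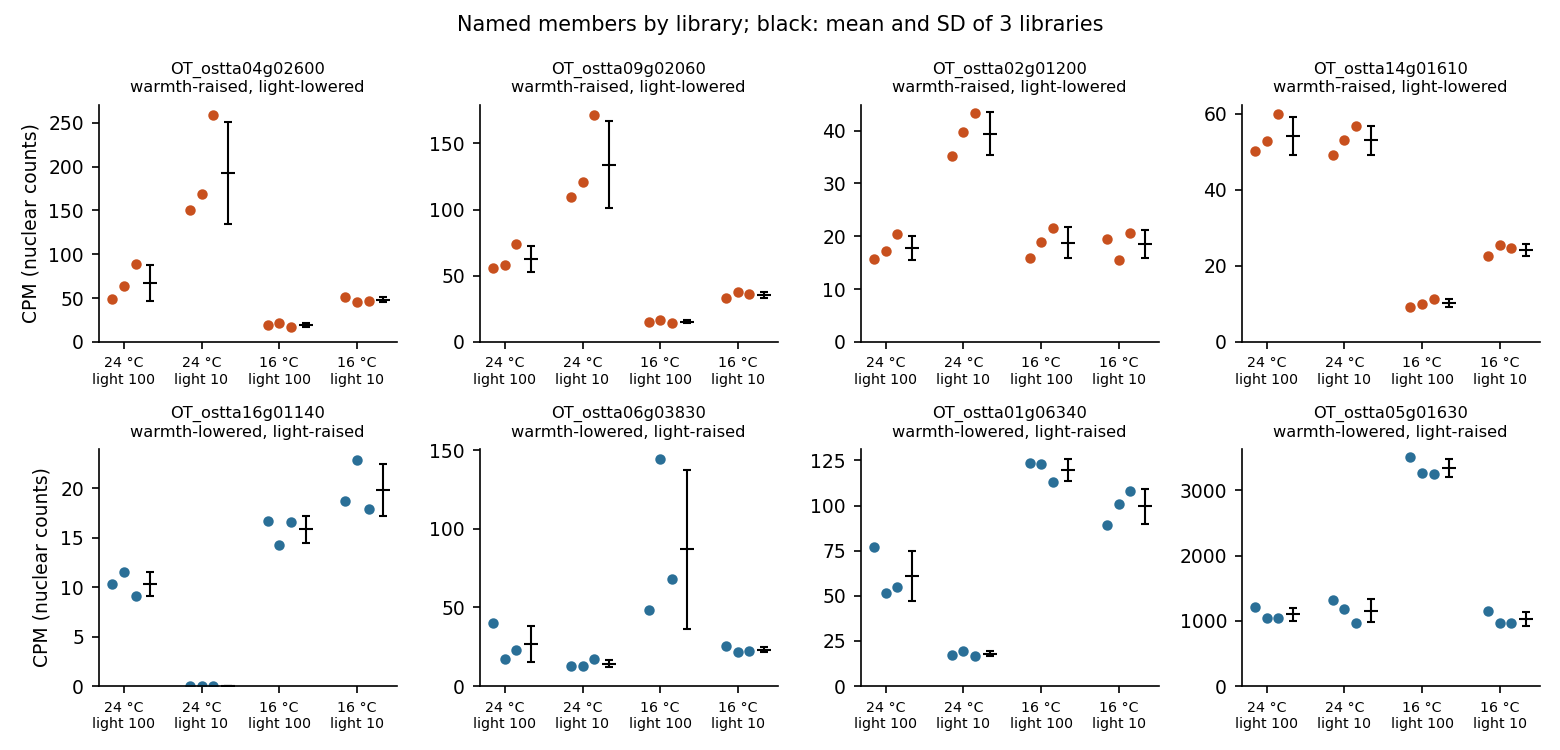
CPM (count scaled to a fixed total of nuclear counts, vertical, from 0) of 8 members in each library, by group, with the mean and SD of 3 libraries in black. OT_ostta04g02600 and OT_ostta09g02060 are highest in the 24 °C, light 10 libraries and lowest in the 16 °C, light 100 libraries. Among the others, OT_ostta02g01200 is high in the 24 °C, light 10 libraries, OT_ostta14g01610 is low in the 16 °C, light 100 libraries, OT_ostta16g01140 has no count in the 24 °C, light 10 libraries and OT_ostta05g01630 is high in the 16 °C, light 100 libraries.

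Whether the warmth difference depended on light was a question the ranking by score did not use. The mean differences that chose the genes are orthogonal to it as far as the groups vary alike. The minimum of 5 CPM, however, could be passed through 1 group. In the warmth-raised set, 1 gene called negative below had 7.31 CPM at 24 °C and light 10 and at most 1.81 CPM in the other group means. How many members passed in this way was not counted. The interaction, meaning the warmth difference at light 100 minus that at light 10, was tested for all genes with edgeR's quasi-likelihood test. Of 7667 genes tested, 30.5% were called at a Benjamini-Hochberg adjusted p under 0.05, 16.9% positive and 13.6% negative. All 150 members were tested. Among the warmth-raised, light-lowered genes 23 were called (30.7%), 5 positive (6.67%) and 18 negative (24%). Among the warmth-lowered, light-raised genes 40 were called (53.3%), 26 positive (34.7%) and 14 negative (18.7%). In this fit the warmth-raised set was thus called about as often as genes in general, with more of its calls negative. The light-raised set was called more often. These shares were not tested against each other. Of the genes with the highest scores, OT_ostta04g02600 had an interaction of -0.13 ± 0.339 (SE; edgeR adjusted p = 0.804), OT_ostta09g02060 one of 0.16 ± 0.258 (adjusted p = 0.666) and OT_ostta06g03830 one of -0.96 ± 0.486 (adjusted p = 0.152).

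The median interaction was -0.37 in the warmth-raised set and 0.32 in the light-raised set, against 0.01 over all genes tested. The interaction was negative in 61 of the 75 warmth-raised genes and positive in 51 of the 75 light-raised genes. Over all 7667 genes tested it was negative in 3736 and positive in 3931. In both sets the more frequent sign is the one that goes with a larger warmth difference at light 10. Without the third library at 24 °C and light 10 the medians were -0.22 and 0.27, with 15 negative calls in the warmth-raised set and 27 positive calls in the light-raised set. Over all genes tested, that fit called 1075 negative and 1433 positive, against 1042 and 1295 with all libraries. When that library was left out of the choice of genes as well, the medians were -0.21 and 0.22, with 17 and 29 such calls. The number of negative calls in the warmth-raised set also moved with other libraries, to 8 without the second library at 16 °C and light 10 and to 28 without the third at 24 °C and light 100. In these fits 778 and 1116 of all genes tested were called negative. Calls in either direction made 16% and 42.7% of the warmth-raised set, against 22.4% and 30.9% of all genes. The orthogonality holds as far as the groups vary alike, and the median coefficient of variation over the 7290 genes was 11.4% in warm bright, 10.8% in warm dim, 8.03% in cool bright and 6.09% in cool dim libraries. In the same order it was 16.2%, 16.4%, 11.6% and 6.90% in the warmth-raised set. For the light-raised set it was 14.6%, 13.1%, 8.05% and 7.48%. The part of this spread in the calls and medians was not tested.

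**Figure D3:**
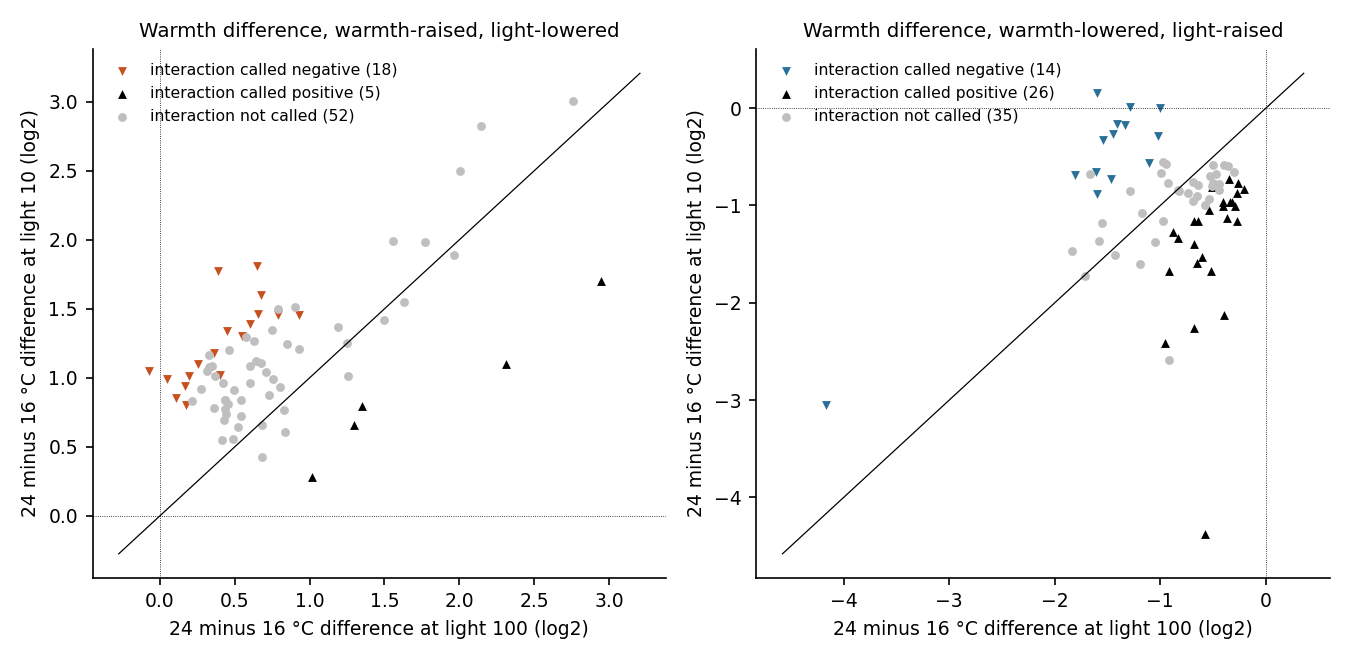
Warmth difference (24 minus 16 °C, log2 of mean CPM plus 1) at light 100 (horizontal) and at light 10 (vertical) of the 75 genes in each set, with the line of equal differences. Genes called for a negative interaction (18 and 14) lie above the line and genes called for a positive one (5 and 26) below it.

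The calls divided the members by the settings in which their differences were larger. In the 18 warmth-raised, light-lowered genes with a negative interaction, the median warmth difference was 0.39 at light 100 and 1.24 at light 10, and the median light difference was -1.10 at 24 °C and -0.32 at 16 °C. In all 18 the 24 °C, light 10 mean was above both the 24 °C, light 100 and the 16 °C, light 10 mean. This order follows from the signs of the set and of the call. The light difference at 16 °C was within 0.5 of 0 in 13 of the 18 genes and the warmth difference at light 100 in 11. OT_ostta02g01200, with the smallest p of them, is the clearest case. At 24 °C, OT_ostta02g01200 had 15.8, 17.3 and 20.3 CPM at light 100 and 35.2, 39.6 and 43.4 CPM at light 10. The 16 °C libraries had 15.9, 18.9 and 21.6 CPM at light 100 and 19.4, 15.6 and 20.6 CPM at light 10. The libraries at 24 °C and light 10 were all above the other 9, which overlapped. Its interaction was -1.10 ± 0.217 (SE; edgeR adjusted p = 0.00239), and its light difference at 16 °C was 0.02. OT_ostta04g01750 followed, with 31.2 ± 2.27 and 71.3 ± 2.79 CPM at 24 °C with light 100 and light 10, and 27.4 ± 3.21 and 40.4 ± 0.571 CPM at 16 °C (mean ± SD, n = 3 each). Its interaction was -0.57 ± 0.140 (edgeR adjusted p = 0.00824).

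A positive interaction was called in 5 genes of this set, where the median warmth difference was 1.35 at light 100 and 0.79 at light 10 and the median light difference was -0.22 at 24 °C and -1.18 at 16 °C. In all 5 the 16 °C, light 100 mean was below both the 24 °C, light 100 and the 16 °C, light 10 mean, which again follows from the signs of set and call. The other groups differed too. The warmth difference at light 10 was within 0.5 of 0 in 1 of the 5 and reached 1.70, and the light difference at 24 °C was within 0.5 of 0 in 4 and reached -1.47. OT_ostta14g01610 led them. At 24 °C, OT_ostta14g01610 had 50.2, 52.8 and 59.8 CPM at light 100 and 49.1, 53.2 and 56.8 CPM at light 10. At 16 °C it had 9.18, 10.0 and 11.2 CPM at light 100 and 22.5, 25.6 and 24.6 CPM at light 10. Both light levels overlapped at 24 °C, and at 16 °C every library at light 100 was below every library at light 10. The interaction was 1.35 ± 0.166 (edgeR adjusted p = 1.21e-04). OT_ostta07g04030 had the same form, with a warmth difference of 2.94 at light 100 and 1.70 at light 10 and an interaction of 1.39 ± 0.221 (edgeR adjusted p = 6.28e-04). In the 52 genes with no call, the median warmth difference was 0.64 and 1.03 at light 100 and light 10, and the median light difference was -0.88 and -0.48 at 24 and 16 °C.

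Of the warmth-lowered, light-raised genes, the 26 with a positive interaction had a median warmth difference of -0.52 at light 100 and -1.16 at light 10, and a median light difference of 1.06 at 24 °C and 0.31 at 16 °C. In all 26 the 24 °C, light 10 mean was below both the 24 °C, light 100 and the 16 °C, light 10 mean. As above, the signs of the set and of the call fix this order. The light difference at 16 °C was within 0.5 of 0 in 22 of the 26 genes and the warmth difference at light 100 in 12. Besides OT_ostta16g01140, whose interaction was at least 8.80 against the same limit of 3 counts and without TMM scaling, OT_ostta01g06340 had the smallest p. At 24 °C, OT_ostta01g06340 had 77.1, 51.4 and 55.1 CPM at light 100 and 17.4, 19.5 and 16.7 CPM at light 10. Its libraries at 16 °C had 123, 123 and 113 CPM at light 100 and 89.4, 101 and 108 CPM at light 10. Its libraries at 24 °C and light 10 were all below its other 9 libraries, and its interaction was 1.55 ± 0.177 (edgeR adjusted p = 7.05e-05).

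In all 14 genes of this set with a negative interaction, the 16 °C, light 100 mean was above both the 24 °C, light 100 and the 16 °C, light 10 mean. Here too the order follows from the signs of the set and of the call. The median warmth difference of the 14 genes was -1.46 at light 100 and -0.31 at light 10. Their median light difference was 0.05 at 24 °C and 1.11 at 16 °C. The light difference at 24 °C was within 0.5 of 0 in 13 of the 14, and the warmth difference at light 10 in 8, with the lowest at -3.06. OT_ostta05g01630, which also had the highest mean CPM of the set, had the smallest p. At 24 °C it had 1220.3, 1047 and 1048 CPM at light 100 and 1317, 1179 and 965 CPM at light 10. Libraries at 16 °C had 3507, 3272 and 3259.9 CPM at light 100 and 1159, 972 and 967 CPM at light 10. Only its libraries at 16 °C and light 100 were set apart, with the other 9 overlapping, and the interaction was -1.70 ± 0.151 (edgeR adjusted p = 1.45e-05). OT_ostta01g05910 was alike in form, with 43.8 ± 5.06 and 48.2 ± 3.33 CPM at 24 °C with light 100 and light 10, and 129 ± 7.06 and 60.6 ± 4.03 CPM at 16 °C (mean ± SD, n = 3 each). Its interaction was -1.18 ± 0.136 (edgeR adjusted p = 7.63e-05). In the 35 genes with no call, the median warmth difference was -0.83 at light 100 and -0.84 at light 10, and the median light difference 0.69 at 24 °C and 0.65 at 16 °C.

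**Figure D4:**
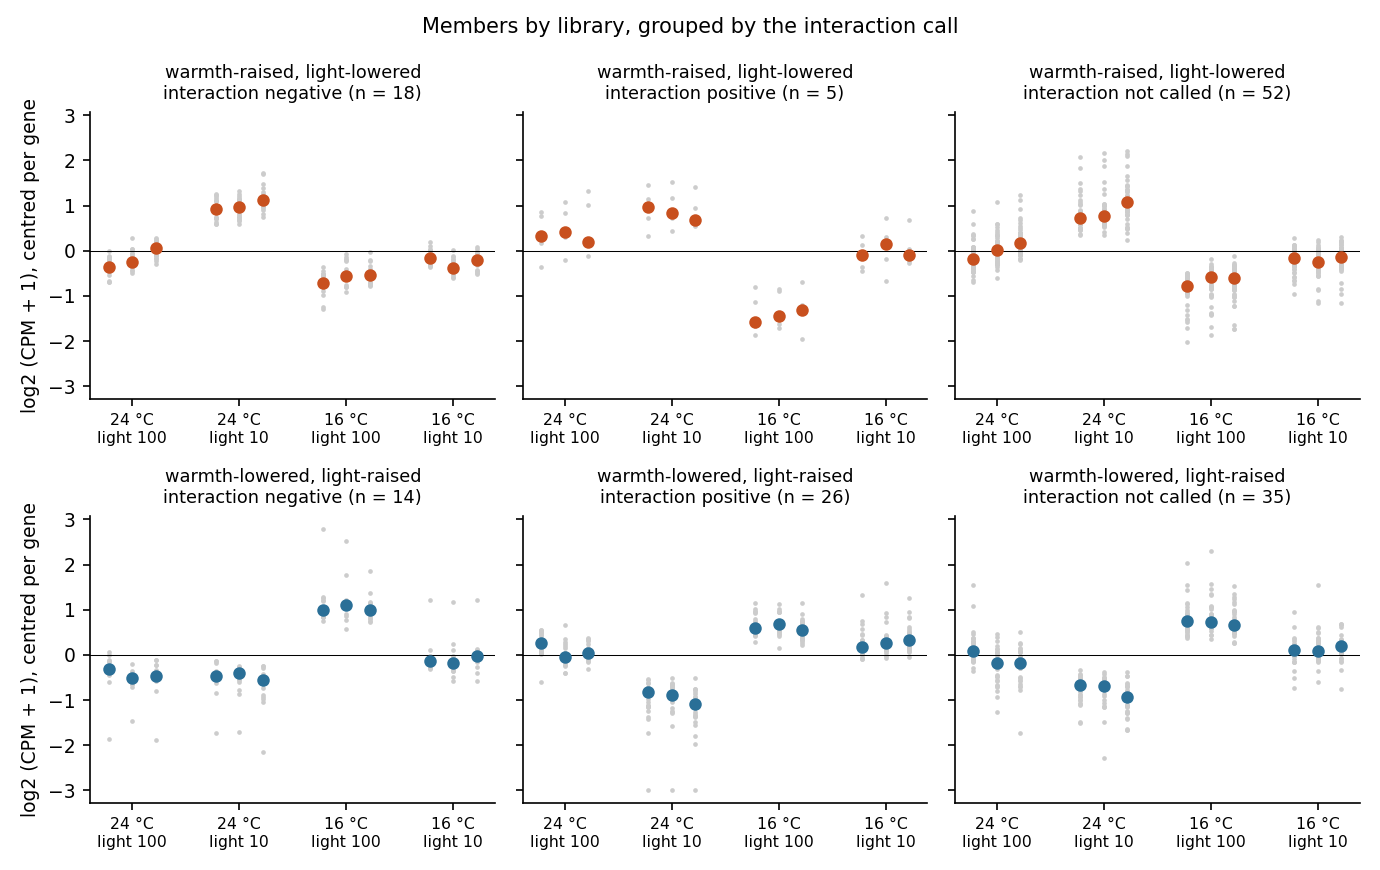
Log2 of CPM plus 1, centred on each gene's mean over 12 libraries (vertical), in the 3 libraries of each group. Grey points are genes and coloured points their median, in panels by set (rows) and interaction call (columns). The median of the 18 genes called negative in the first row is highest at 24 °C and light 10, that of the 26 called positive in the second row is lowest there, and that of the 14 called negative in the second row is highest at 16 °C and light 100.

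Most members had opposed differences in every setting, which the rule favours. All 4 simple differences, namely warmth at each light and light at each temperature, had the sign of the set in 73 of the 75 warmth-raised, light-lowered genes and in 65 of the 75 warmth-lowered, light-raised genes, and they were past 0.5 in 16 and 20. The exceptions in the light-raised set were 5 genes by light at 24 °C, 3 by light at 16 °C and 3 by warmth at light 10. Over the 7290 genes, 497 had all 4 signs of the warmth-raised set and 732 had all 4 of the light-raised set, whatever the size.

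The most abundant members varied in form as well. OT_ostta07g03440 led the warmth-raised set, with 1202 ± 252 and 2633 ± 172 CPM at 24 °C with light 100 and light 10, and 992 ± 55.7 and 1391 ± 157 CPM at 16 °C (mean ± SD, n = 3 each). Its interaction was -0.58 ± 0.222 (edgeR adjusted p = 0.0621), and it passed the threshold with DESeq2 (adjusted p = 0.0337) and in 3 of the other 17 alternatives, over which its adjusted p ran from 0.0203 to 0.127. OT_ostta02g00050 came next, with 741, 878 and 1135 CPM in the warm bright libraries, 1405, 1411 and 1936 CPM in the warm dim, 557, 657 and 597 CPM in the cool bright, 799, 697 and 737 CPM in the cool dim ones, and an interaction of -0.43 ± 0.252 (edgeR adjusted p = 0.212). After OT_ostta05g01630, the most abundant gene of the light-raised set was OT_ostta04g00130, with 549 ± 136 and 423 ± 66.6 CPM at 24 °C and 1609 ± 84.2 and 961 ± 47.8 CPM at 16 °C. At 24 °C its libraries at the 2 light levels overlapped, and its interaction was -0.32 ± 0.190 (edgeR adjusted p = 0.225, and 0.0213 without the first library at 24 °C and light 100).

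The opposed signs were then looked for in libraries that had no part in the choice. These are of the same 12 libraries and may be technical repeats, so the values are a description and not an independent test. Genes chosen for large differences are set beside all genes, many of which had small ones. The rule was applied to 2 of the 3 replicate numbers, and the genes it chose were measured in the libraries of the third. Of 75 genes chosen as warmth-raised and light-lowered, 75, 74 and 73 had both signs in the libraries held out (replicates 1, 2 and 3), where 17.3%, 12.6% and 12.4% of all genes at 5 CPM or more had them. Of 75 genes chosen as warmth-lowered and light-raised, 75, 73 and 72 had both signs, against 21.0%, 19.1% and 23.8% of all genes. The median score of the first kind was 0.59, 0.49 and 0.56 in the libraries held out, against 0.59, 0.65 and 0.60 in those that chose them. For the second kind it was 0.50, 0.51 and 0.54 held out, against 0.60, 0.62 and 0.58. In the same held-out libraries the median interaction was -0.38, -0.60 and -0.47 for the first kind and 0.28, 0.04 and 0.17 for the second, against -0.01, -0.13 and 0.03 over all genes. With 1 library left out at a time, 56 genes of the warmth-raised set and 49 of the light-raised set were chosen in all 12 cases.

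The number after ostta in each identifier was read as the chromosome. By that number the warmth-lowered, light-raised genes had 14 on chromosome 1 and 8 on chromosome 16, which make 18.7% and 10.7% of the set, against 8.82% and 3.96% of the 7290 genes. The warmth-raised, light-lowered genes had 4 on chromosome 1 and none on chromosome 16, and their highest count was 8 on chromosome 7 (10.7%, against 6.31% of all genes). The light-raised set had no gene on chromosomes 13, 15 and 20, which held 304, 302 and 88 of the 7290. Neither set had a gene on chromosome 19, which held only 51 of them (0.70%). These shares are descriptions without a test.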

How the data were processed

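RNA of 12 Ostreococcus tauri libraries was sequenced, with 18415316 to 38801166 counts each. The deposited values are raw counts of reads per gene, 1 column per library. Tools listed in the submitters' processing notes are HISAT2 2.1.0 and FastQC 0.11.5. Nothing used here states the counting program, its use of strand, the genome build or the annotation, so overlapping genes may share reads.

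From the counts, CPM over the nuclear column sum gave the members. The interaction was fitted to the whole table, plastid and mitochondrial rows included (7667 genes after edgeR's filter on low counts), with edgeR 4.0.16 in R 4.3.3, TMM scaling, 1 mean per group, the quasi-likelihood test and Benjamini-Hochberg adjustment at 0.05. The rule and the fit were each run on simulated counts with planted differences. Those counts had the same spread in every group, and no members were chosen before the simulated fit. Warmth and light differences have no test, because they chose the genes. Spreads are SDs over 3 libraries. Alternatives were DESeq2 1.42.0, other scalings and filters, a replicate block and leaving out libraries.

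The members, gene lists and alternatives were chosen with earlier results of these data known. Named genes are, for each set, the 2 of highest score, of highest mean CPM and, in each direction, of smallest interaction p, and the genes at the threshold. Planned lists of genes by product could not be made, since no table used here pairs these identifiers with products.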

Additional observations from a re-analysis of the deposited data

Results flagged for a closer look

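The effect of warmth differed between light 100 and light 10, by edgeR's quasi-likelihood test of the interaction with Benjamini-Hochberg adjustment over 7667 genes, for 8 of the members named above. It was lower at light 100 for OT_ostta02g01200 (-1.10 on the log2 scale, adjusted p = 0.00239) and OT_ostta04g01750 (-0.57, adjusted p = 0.00824) of the warmth-raised, light-lowered genes, and higher at light 100 for OT_ostta14g01610 (1.35, adjusted p = 1.21e-04) and OT_ostta07g04030 (1.39, adjusted p = 6.28e-04). Of the warmth-lowered, light-raised genes, OT_ostta01g06340 (1.55, adjusted p = 7.05e-05) and OT_ostta16g01140 (at least 8.80 against 3 counts over the group with none; adjusted p = 1.33e-07) had the larger difference at light 10, while OT_ostta05g01630 (-1.70, adjusted p = 1.45e-05) and OT_ostta01g05910 (-1.18, adjusted p = 7.63e-05) had it at light 100. These 8 were picked for their small p.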

How the results depend on the processing

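Negative calls among the warmth-raised genes numbered 8 to 28 with 1 library left out, and positive calls among the light-raised genes 19 to 27. Over all genes tested, negative calls then numbered 778 to 1116 and positive calls 947 to 1433. The fewest in the warmth-raised set, 8, came without the second library at 16 °C and light 10 (all 8 among the 18). The most, 28, came without the third at 24 °C and light 100, where all 18 remained. With library sizes alone in place of TMM, positive calls among the light-raised genes numbered 17, all of them among the 26. Over all genes tested they numbered 1030, against 1295 with TMM. In that fit 45.7% of all calls were positive, against 55.4% with TMM. The cause was not tested. With DESeq2 there were 26 negative calls in the warmth-raised set and 26 positive ones in the light-raised set. Over all genes it called 1267 negative and 1430 positive. Whether replicate numbers pair the libraries is unclear. Same-numbered libraries of different groups had correlations of -0.34 to 0.66 in their deviations (median 0.0747), with 8 of 18 over 0.1. Between the groups at 24 °C all 3 were over 0.1 (0.25, 0.276 and 0.664), and 9 of 12 libraries had a higher mean with their own number. With the replicate number as a block, 1336 genes were called positive and 1094 negative, with 5 and 24 in the warmth-raised set and 25 and 14 in the light-raised set. Choosing and fitting without the third library at 24 °C and light 10 was added after seeing the data. Of 270 values for 15 named members under 18 alternatives, 262 kept their direction and side of the threshold and 5 newly passed it. The other 3 changed sign without passing it. With 1 library left out, the interaction of OT_ostta04g02600 ran from -0.40 to 0.20, positive without the first library at 24 °C and light 100 (0.06) and without the third at 24 °C and light 10 (0.20). That of OT_ostta03g01720 ran from -0.15 to 0.0024, positive without the first library at 24 °C and light 100. Other choices of members (pseudocount, minimum CPM, scaling, replicates left out) shared 58 to 75 genes with the warmth-raised set and 54 to 75 with the light-raised set, the fewest with TMM-scaled sums. In all 21 of them 46 and 36 genes were kept.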

Other observations

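Members were in 5 cases neighbours in identifier order, and both genes of each pair were in the same set (3 pairs in the warmth-raised set and 2 in the light-raised set). OT_ostta01g06340 and OT_ostta01g06350 had the closest profiles, with a Pearson correlation of 0.989 over the 12 libraries, followed by OT_ostta17g01180 and OT_ostta17g01190 with 0.986. These pairs were picked after their values were seen, both genes of each were chosen for alike differences, and the correlations are descriptions over libraries of 4 groups. Strand use is not stated, so reads shared by overlapping neighbours cannot be told apart.

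The genes on either side of OT_ostta16g01140 were counted in the libraries at 24 °C and light 10 where it had none. OT_ostta16g01130 had 6.57 ± 1.28 CPM there and OT_ostta16g01145 had 5.47 ± 1.52 CPM (SD, n = 3 each). A single other gene of the 7290 had no count in a whole group, OT_ostta16g00890 at 16 °C and light 10, and its highest library elsewhere had 8.22 CPM. It is no member, and all of these were looked at after the values were seen.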
